A study of Homo sapiens with 15 samples.

Results

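Collagen gene expression was compared between sorted fractions of PEO1, a human cell line established from ovarian carcinoma. The genes are a list of 33 collagen chains, of which 32 were measured among 19775 genes in all. COL17A1 was not analysed here, since no probe set of the annotation used names it alone. Each gene was read from its brightest probe set, intensities under 16 were set to 16 (the floor), and log2 was taken. PEO1 cells grown in RPMI-1640 with 10% FBS were trypsinised, stained with antibodies to CD90 and CD133 and with the dead-cell dye Sytox-blue, and sorted without any further treatment. Of the 3 fractions collected, the first carried neither marker (CD90-/CD133-), the second CD90 alone (CD90+/CD133-) and the third both (CD90+/CD133+), and each was run on 5 arrays. All fractions therefore come from the same parental line and are defined by surface phenotype. The methods describe biological replicates for CD90-/CD133- and CD90+/CD133- cells. For CD90+/CD133+ cells the sources used here do not say whether the arrays came from separate cultures, so p-values there measure only the spread between these arrays. The labels number the replicates of each fraction from 1 to 5, which was followed here, although a note of the submitters calls the cultures triplicate.

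Collagen chains wind around each other into a rigid helix and are then secreted, trimmed and crosslinked outside the cell. Fibril-forming collagens such as I and V give connective tissue its tensile strength and are made mostly by fibroblasts. Collagen IV forms the sheet-like network of basement membranes and is also made by epithelial cells. Other collagens decorate fibrils (IX, XII), form microfilaments (VI) or short-chain lattices (VIII), anchor the basement membrane to the tissue beneath it (VII) or sit in the basement membrane zone as proteoglycans (XVIII). Ovarian carcinoma is of epithelial origin and spreads over peritoneal surfaces that are rich in collagen.

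The intensities are linear values that the authors had normalized between arrays, and an array's median lay between 29.4 and 32.4. The markers of the sort followed the labels. THY1, which encodes CD90, was at 57.8 to 101.3 in CD90-/CD133- cells against 728.5 to 2171 over both CD90+ fractions. PROM1, which encodes CD133, reached 429.3 to 1652 in CD90+/CD133+ cells. It was at 16 to 44.1 in CD90-/CD133- and at 21.5 to 156.0 in CD90+/CD133- cells. Of 10 fibroblast markers, 3 were at the floor on every array. The 10 together summed to 507 to 662 in CD90-/CD133-, 1114 to 1645 in CD90+/CD133- and 1061 to 2679 in CD90+/CD133+ cells. The gate gene THY1 alone averaged 76.2, 971.0 and 1417, so the sum rises through the gene that was sorted on. Besides THY1 only FAP was called, 4.06-fold and 3.95-fold lower in the CD90+ fractions (adjusted p = 2.51e-04 and 8.22e-05 from limma). S100A4 was called higher in CD90+/CD133+ cells only with the replicate number as a block (adjusted p = 0.00325). The 9 epithelial markers summed to 51747 to 64205, 36238 to 48550 and 32477 to 45184 in the order of fractions above. KRT8 (1.97-fold and 2.03-fold) and KRT18 (1.52-fold and 1.58-fold) were called lower in both CD90+ fractions, and KRT7 (1.56-fold) in CD90+/CD133+ cells. EPCAM was called higher in both, 1.26-fold and 1.21-fold (adjusted p = 0.00324 and 0.0450 from limma, the second 0.0540 with the block). KRT19, PAX8, MUC16, WT1 and CDH1 were not called without the block. With the block KRT7 was called lower in CD90+/CD133- cells as well (adjusted p = 0.102 from limma, 0.00953 with the block). KRT19 was then called lower in CD90+/CD133+ cells (0.699, 0.0415 with the block). The 5 endothelial markers summed to 118 to 142, 123 to 142 and 135 to 155, and the 4 leukocyte markers to 111 to 135, 159 to 217 and 142 to 232, with 2 of each list at the floor throughout. Of the leukocyte markers CD14 was called higher in both CD90+ fractions, 1.94-fold and 2.00-fold (adjusted p = 0.00714 and 0.0302 from limma), while PTPRC, which defines leukocytes, was at the floor on every array. The part of these markers in the collagen results was not tested. The log2 gap between the 3' and 5' control probe sets of GAPDH, a sign of RNA quality, averaged 0.186 in CD90+/CD133- cells and 0.0565 in CD90-/CD133- cells (n = 5 each, 2-sided exact permutation p = 0.0159, 0.0714 adjusted over 6 comparisons). In CD90+/CD133+ cells it averaged 0.0498 (exact permutation p = 0.833 against CD90-/CD133- and 0.0238 against CD90+/CD133- cells, 0.833 and 0.0714 adjusted). The ACTB gap averaged 1.84 in CD90-/CD133- cells, 2.46 in CD90+/CD133- cells and 1.70 in CD90+/CD133+ cells. Its exact permutation p was 0.0714 and 0.659 for the CD90+ fractions against CD90-/CD133- cells and 0.0952 between the CD90+ fractions (adjusted 0.143, 0.790 and 0.143), so none of the 6 comparisons passed after adjustment. The part of RNA quality in the collagen results was not tested.

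The collagen IV genes lie in pairs that are transcribed away from each other from adjoining start sites, so that a pair shares the DNA between its starts. The stretches beside the start sites of COL4A1, COL4A2 and COL4A5 are shown because these were the collagen genes with the clearest falls, the first pair falling together. Both are from RefSeq (GRCh38.p14, plus strand). Capitals mark matches to the CCAAT box (CCAAT) or the GC box (GGGCGG) on either strand. The first is the whole of the 126 bases between the starts of COL4A1 (minus strand) and COL4A2 (plus strand), at chr13:110307158-110307283, and the second is the 250 bases before the start of COL4A5 (plus strand), out of 379 bases that separate it from the start of COL4A6 (minus strand), at chrX:108439588-108439837.
COL4A1 and COL4A2: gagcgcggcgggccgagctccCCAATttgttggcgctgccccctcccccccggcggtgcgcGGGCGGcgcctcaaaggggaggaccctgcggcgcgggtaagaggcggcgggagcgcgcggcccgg
COL4A6 and COL4A5: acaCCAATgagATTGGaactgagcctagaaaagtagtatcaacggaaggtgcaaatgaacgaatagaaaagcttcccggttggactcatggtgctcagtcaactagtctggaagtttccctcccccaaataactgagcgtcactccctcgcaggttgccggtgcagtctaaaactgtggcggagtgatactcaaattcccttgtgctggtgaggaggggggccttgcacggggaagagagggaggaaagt
The COL4A1 and COL4A2 stretch is 80.2% G or C and holds 1 CCAAT and 1 GGGCGG, while the COL4A5 stretch is 51.2% G or C and holds 2 CCAAT matches and no GGGCGG. Neither holds TATAAA. Over 35116 promoter windows of 300 bases in the same RefSeq table, 34.6% held CCAAT, 45.0% held GGGCGG and 11.5% held TATAAA, so the matches are common ones. They are a description of the letters and not of factor binding.

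The first comparison asks how CD90+/CD133- cells differ from CD90-/CD133- cells. Of the 32 collagen genes 6 were called at an adjusted p under 0.05 (limma, Benjamini-Hochberg over all genes), which is 18.8% beside 19.0% of all genes. COL4A1, COL4A2, COL4A5 and COL12A1 were lower (4 genes, 12.5% beside 9.88% of all genes) and COL8A1 and COL9A3 were higher (2 genes, 6.25% beside 9.08%). The shares are close to the background and are not a result about the family as a whole. The median log2 fold change was -0.01 over the 32 genes and 0 over all genes, and 8 of the 32 had an unadjusted p under 0.05.
In the second comparison, CD90+/CD133+ over CD90-/CD133- cells, 8 of 32 were called (25%, beside 20.4% of all genes). The lower genes were the 4 named above and COL6A1 (5 genes, 15.6% beside 10.8%), and the higher ones were COL6A3, COL8A1 and COL9A3 (3 genes, 9.38% beside 9.57%). Both comparisons use the CD90-/CD133- arrays, so they are not independent of each other, and their values are given side by side.
Same-numbered arrays deviated together, least so for replicate 3. A fit with the replicate number as a block called 8 collagen genes in the first comparison (25.6% of all genes called) and 9 in the second (28.2%). In the first, COL12A1 lost its call and COL5A1, COL6A1 and COL7A1 became lower. In the second, COL12A1 and COL6A3 lost theirs, COL5A1 became lower and COL6A2 and COL18A1 higher. Lower genes numbered 6 and 5 of 32 in this fit, beside 13.6% and 15.2% of all genes, and higher ones 2 and 4, beside 2370 and 2576 of all 19775 genes.

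**Figure D1:**
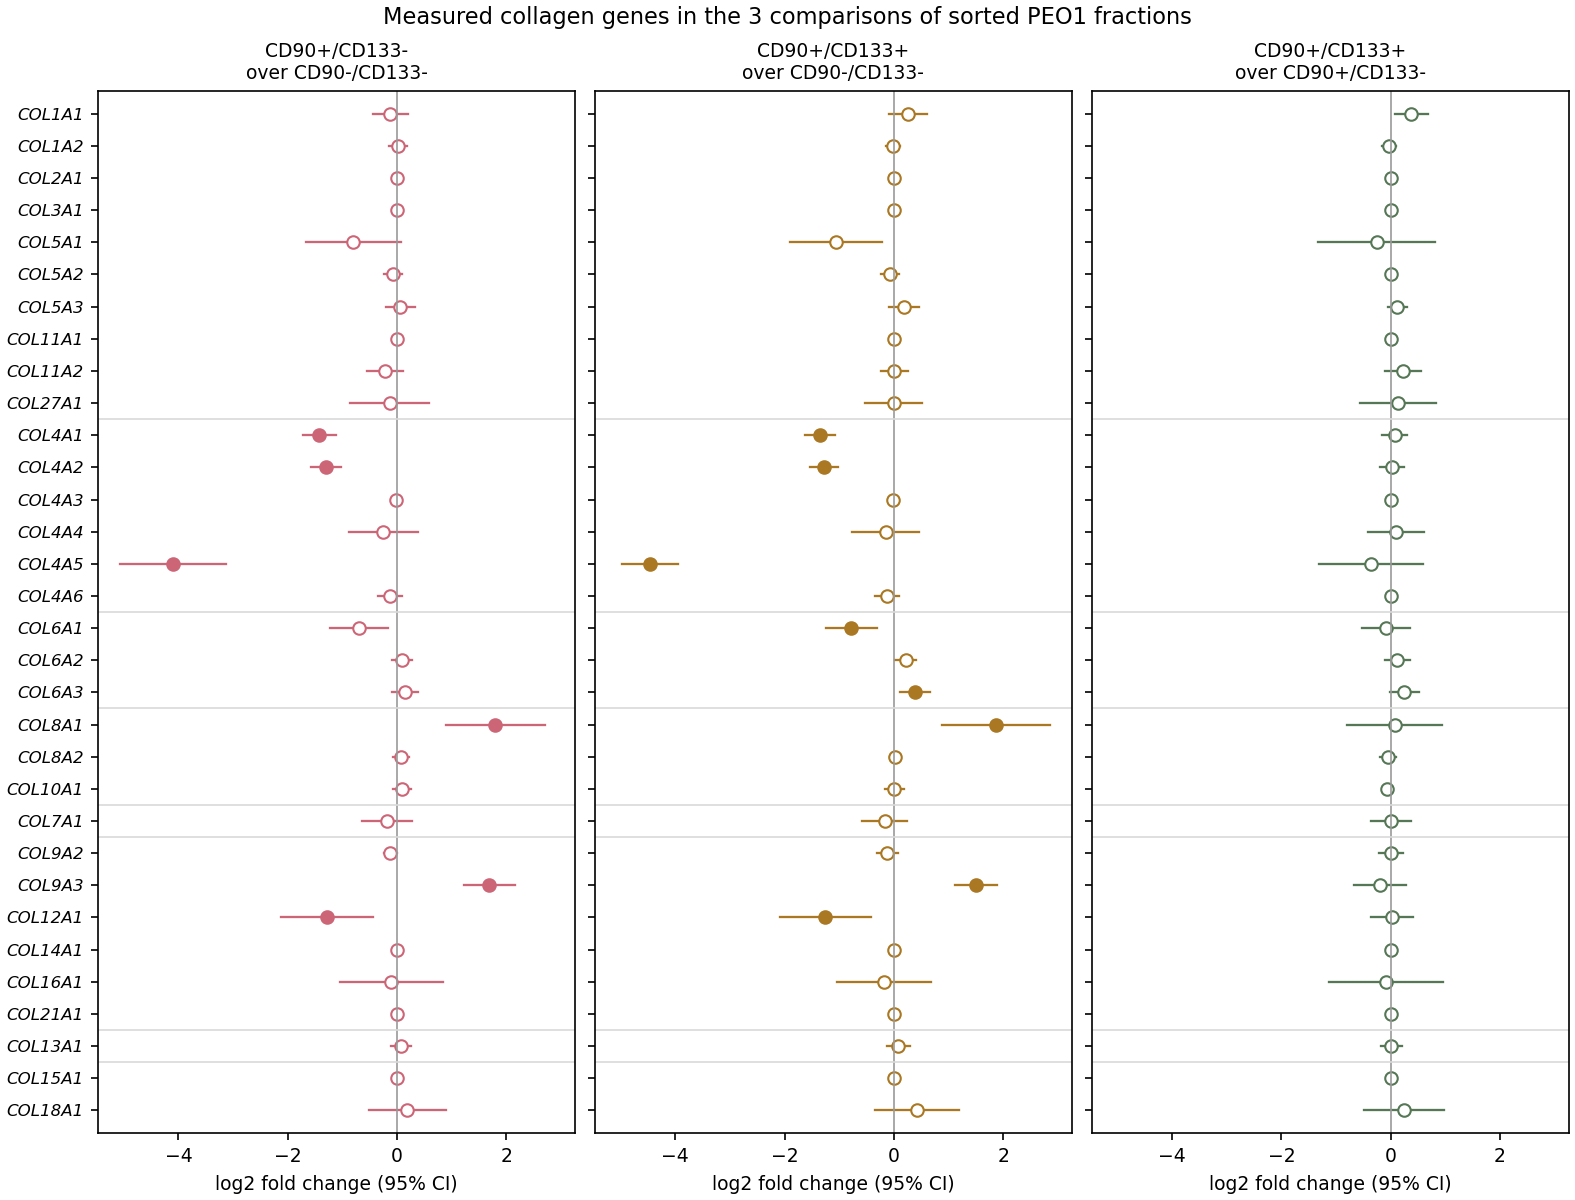
Log2 fold change of the 32 measured collagen genes (points, with 95% confidence intervals from limma, n = 5 arrays per fraction) in the 3 comparisons, grouped by structural class. Filled points passed an adjusted p under 0.05 without the replicate block: 6 genes in the first panel, 8 in the second and none in the third, with COL4A5 farthest below 0 at -4.11 and -4.47.

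Collagen IV was the class with the largest falls, and 3 of its 6 genes were lower in both CD90+ fractions while none was higher (9.88% and 10.8% of all genes were lower in the first and second comparison). COL4A1 and COL4A2 encode the chains of the basement membrane collagen found in nearly all tissues. COL4A1 was at 818.0, 665.9, 553.7, 769.2 and 805.0 on CD90-/CD133- arrays 1 to 5, at 249.2, 224.9, 314.8, 275.8 and 280.4 on the CD90+/CD133- arrays, and at 294.1, 266.8, 277.3, 250.0 and 322.2 on the CD90+/CD133+ arrays. Each CD90+ array lay below every CD90-/CD133- array. The fall was 2.67-fold in CD90+/CD133- cells (log2 fold change -1.42, SE 0.130, adjusted p = 2.23e-04 from limma) and 2.54-fold in CD90+/CD133+ cells (-1.35, SE 0.120, adjusted p = 1.39e-04).
COL4A2 was at 1470.3, 1177.6, 1101.0, 1323.0 and 1572.4 on the CD90-/CD133- arrays, at 588.6, 444.3, 581.1, 513.3 and 569.0 on the CD90+/CD133- arrays and at 572.7, 515.0, 527.5, 492.2 and 621.9 on the CD90+/CD133+ arrays. Again the fractions did not overlap, and the sizes were close to those of its divergent partner. The log2 fold change was -1.30 in CD90+/CD133- cells (SE 0.119, adjusted p = 2.23e-04 from limma) and -1.28 in CD90+/CD133+ cells (SE 0.110, adjusted p = 1.18e-04). The second probe set of COL4A1 gave -1.52 and -1.60, and that of COL4A2 -1.12 and -1.19.
The genes around this pair were lower as well. Among the 30 expressed genes (mean intensity above 64) nearest to COL4A1 and COL4A2 on chromosome 13, the median log2 fold change was -0.78 for CD90+/CD133- cells and -0.84 for CD90+/CD133+ ones, against -0.03 and -0.00 over all 9988 expressed genes, and 19 and 18 of the 30 were called lower with 1 called higher. COL4A1 and COL4A2 lay below these medians in both fractions. The part of the neighbourhood in their fall was not tested.

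COL4A5 encodes a chain of the specialised collagen IV networks of the glomerulus, eye and ear, and of epithelial basement membranes where it pairs with the product of COL4A6. It showed the largest change of any collagen gene measured here. Its intensities were 355.4, 321.4, 350.0, 417.9 and 627.1 on the CD90-/CD133- arrays, while 3 of the CD90+/CD133- arrays were at the floor of 16 and the others, replicates 3 and 5, at 25.3 and 66.8. The CD90+/CD133+ arrays were at 16 (2 arrays), 16.3, 17.2 and 27.6, and replicate 5 was the highest in each fraction. Since some arrays were at the floor the folds are lower bounds, at least 17.2-fold lower in CD90+/CD133- cells (log2 fold change -4.11, SE 0.424, adjusted p = 3.74e-04 from limma) and at least 22.1-fold lower in CD90+/CD133+ cells (-4.47, SE 0.223, adjusted p = 1.10e-05). The other probe set of COL4A5 was at the floor on all 15 arrays and has no level to compare. The 30 nearest expressed genes on chromosome X had a median of -0.26 and -0.20. In bulk samples fewer cells that express a gene and less RNA per cell cannot be told apart, here and for every gene below.
COL4A6, which starts 379 bases from COL4A5 in the other direction, was near the floor everywhere. It reached 17.7 and 22.8 on CD90-/CD133- replicates 3 and 5 and was set to 16 on the other 13 arrays. Only CD90-/CD133- arrays thus lay above the floor, and with this floor the size of any parallel fall could not be read. The deposited values under 16 are not given here. COL4A3 was at 17.1 on CD90-/CD133- replicate 5 and at the floor on all others. COL4A4 was measurable, at 17.5, 35.0, 28.2, 30.7 and 45.8 on the CD90-/CD133- arrays, at 16 to 30.5 on the CD90+/CD133- arrays and at 18.7 to 33.7 on the CD90+/CD133+ arrays, and its fractions overlapped (adjusted p = 0.691 and 0.898 from limma).

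**Figure D2:**
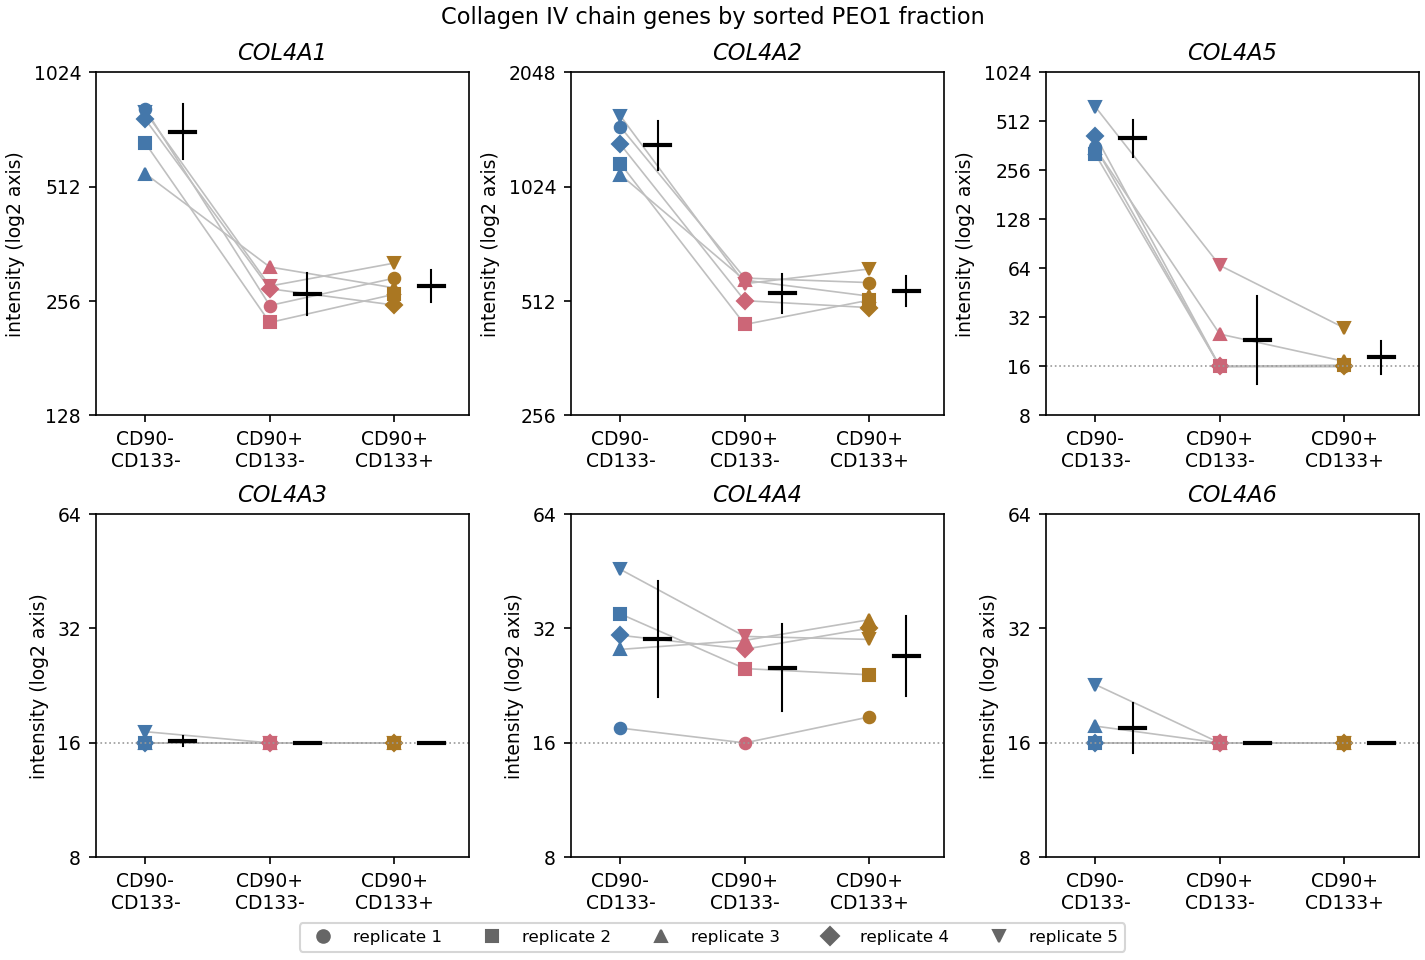
Probe-set intensity (log2 axis) of the 6 collagen IV genes on each array in the 3 sorted fractions. Symbols are replicate numbers, grey lines join arrays of the same number, black bars show the mean of the log2 values with its SD (n = 5) and the dotted line is the floor of 16. COL4A1 and COL4A2 fell by similar amounts in both CD90+ fractions, COL4A5 fell from above 321 to 66.8 or less, and COL4A3, COL4A4 and COL4A6 stayed under 46.

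The genes that rose came from other classes. COL8A1 encodes a short-chain collagen of the lattices in Descemet's membrane of the cornea and in vessel walls. It was at 56.2, 42.5, 103.1, 34.3 and 101.7 on the CD90-/CD133- arrays, at 116.0, 209.7, 302.2, 207.2 and 286.7 on the CD90+/CD133- arrays and at 109.1, 213.3, 268.4, 219.7 and 407.5 on the CD90+/CD133+ arrays. The fractions did not overlap, although replicate 1 of both CD90+ fractions came close to the highest CD90-/CD133- array, and COL8A1 rose in all 5 same-numbered pairs. The rise was 3.48-fold in CD90+/CD133- (log2 fold change 1.80, SE 0.396, adjusted p = 0.0142 from limma) and 3.65-fold in CD90+/CD133+ cells (1.87, SE 0.435, adjusted p = 0.0165). It rests on 1 of 3 probe sets, since the other 2 were at the floor on all 15 arrays. Without replicate 2 the adjusted p was 0.0805 and 0.0885, and without replicate 4 0.0706 and 0.0812. The related COL8A2 and COL10A1 stayed between 17.6 and 29.8 on every array, and neither passed.
COL9A3 encodes a chain of collagen IX, which covers the surface of collagen II fibrils in cartilage. It was dim in CD90-/CD133- cells, at 16, 23.6, 26.0, 20.6 and 20.2, and lay at 44.2, 70.4, 79.0, 63.5 and 89.9 in CD90+/CD133- and at 42.6, 70.5, 61.4, 59.5 and 66.1 in CD90+/CD133+ cells. All 10 CD90+ arrays lay above all 5 CD90-/CD133- arrays. With 1 CD90-/CD133- array at the floor the rise was at least 3.22-fold (log2 fold change 1.69, SE 0.205, adjusted p = 8.27e-04 from limma) and at least 2.82-fold (1.495, SE 0.168, adjusted p = 4.65e-04). Its neighbours on chromosome 20 had medians of -0.19 and -0.11, on the other side of 0, and its single probe set allows no second reading. The other collagen IX gene of the list, COL9A2, was at 37.1 to 49.9 on all arrays and did not pass, and COL2A1, whose product collagen IX decorates, was at the floor on all 15.

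COL12A1, the fourth gene lower in both CD90+ fractions, encodes a fibril-associated collagen that bridges collagen I fibrils. It was at 92.7, 23.3, 58.7, 28.8 and 43.3 on the CD90-/CD133- arrays, at 17.4, 16, 16.7, 16 and 25.4 on the CD90+/CD133- arrays and at 16, 16, 21.6, 16 and 23.1 on the CD90+/CD133+ arrays. The first pair of fractions overlapped by 1 array on each side (23.3 against 25.4) and the second pair did not overlap. The fall was at least 2.42-fold (log2 fold change -1.28, SE 0.368, adjusted p = 0.0433 from limma) and at least 2.39-fold (-1.25, SE 0.366, adjusted p = 0.0427). With the replicate block the adjusted p was 0.0598 and 0.0551, so neither fall was called. In each comparison the call was also lost on leaving out any of 7 of the 10 arrays or any of the 5 replicate numbers, with log2 fold changes of -0.99 to -1.504 and -0.93 to -1.48. Its other 4 probe sets were at or near the floor, with changes no larger than -0.39.

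Collagen VI, the microfilament collagen built from the products of COL6A1, COL6A2 and COL6A3, did not move as a unit. COL6A1 was at 76.5, 75.1, 72.8, 116.2 and 127.9 on the CD90-/CD133- arrays, at 53.3, 39.7, 63.8, 53.2 and 77.7 on the CD90+/CD133- arrays and at 43.3, 48.6, 49.3, 58.5 and 68.9 on the CD90+/CD133+ arrays. It was lower in all 5 pairs of each comparison, and replicate 5 was the highest in each fraction. The log2 fold change was -0.70 in CD90+/CD133- cells (SE 0.231, adjusted p = 0.0723 from limma, 0.0364 with the replicate block) and -0.78 in CD90+/CD133+ cells (SE 0.204, adjusted p = 0.0281, 0.00410 with the block). The fall was read by 1 of 8 probe sets only. The others, 3 of them at or near the floor, gave between -0.24 and 0.17, so the value for COL6A1 depends on the probe set. The call in CD90+/CD133+ cells was lost without CD90+/CD133+ replicate 1, 2 or 3 or CD90-/CD133- replicate 4, and without replicate numbers 1, 2, 3 or 4, with adjusted p of 0.0585 to 0.103.
COL6A3 was dim, at 17.4, 23.1, 20.4, 18.8 and 22.6 on the CD90-/CD133- arrays and at 29.5, 21.6, 28.8, 24.5 and 30.01 on the CD90+/CD133+ arrays, and was higher in 4 of 5 pairs. Its log2 fold change there was 0.39 (SE 0.118, adjusted p = 0.0499 from limma, 0.105 with the replicate block), at the edge of the threshold. Leaving out any of 9 of the 10 arrays ended the call, with log2 fold changes from 0.30 to 0.51 over all arrays and numbers left out. In CD90+/CD133- cells it was at 21.9, 19.1, 21.9, 24.2 and 25.6, a log2 fold change of 0.14 that did not pass.
COL6A2 was at 34.8, 31.1, 34.7, 32.2 and 29.6 in CD90-/CD133-, at 37.3, 38.3, 34.1, 28.8 and 34.8 in CD90+/CD133- and at 41.6, 37.4, 42.2, 36.0 and 31.9 in CD90+/CD133+ cells. In the last fraction it exceeded the first in all 5 pairs, by 0.21 on the log2 scale, and it was called in the fit with the replicate block (adjusted p = 0.0121 from limma) but not without it (0.120). Its other probe set gave -0.02.

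**Figure D3:**
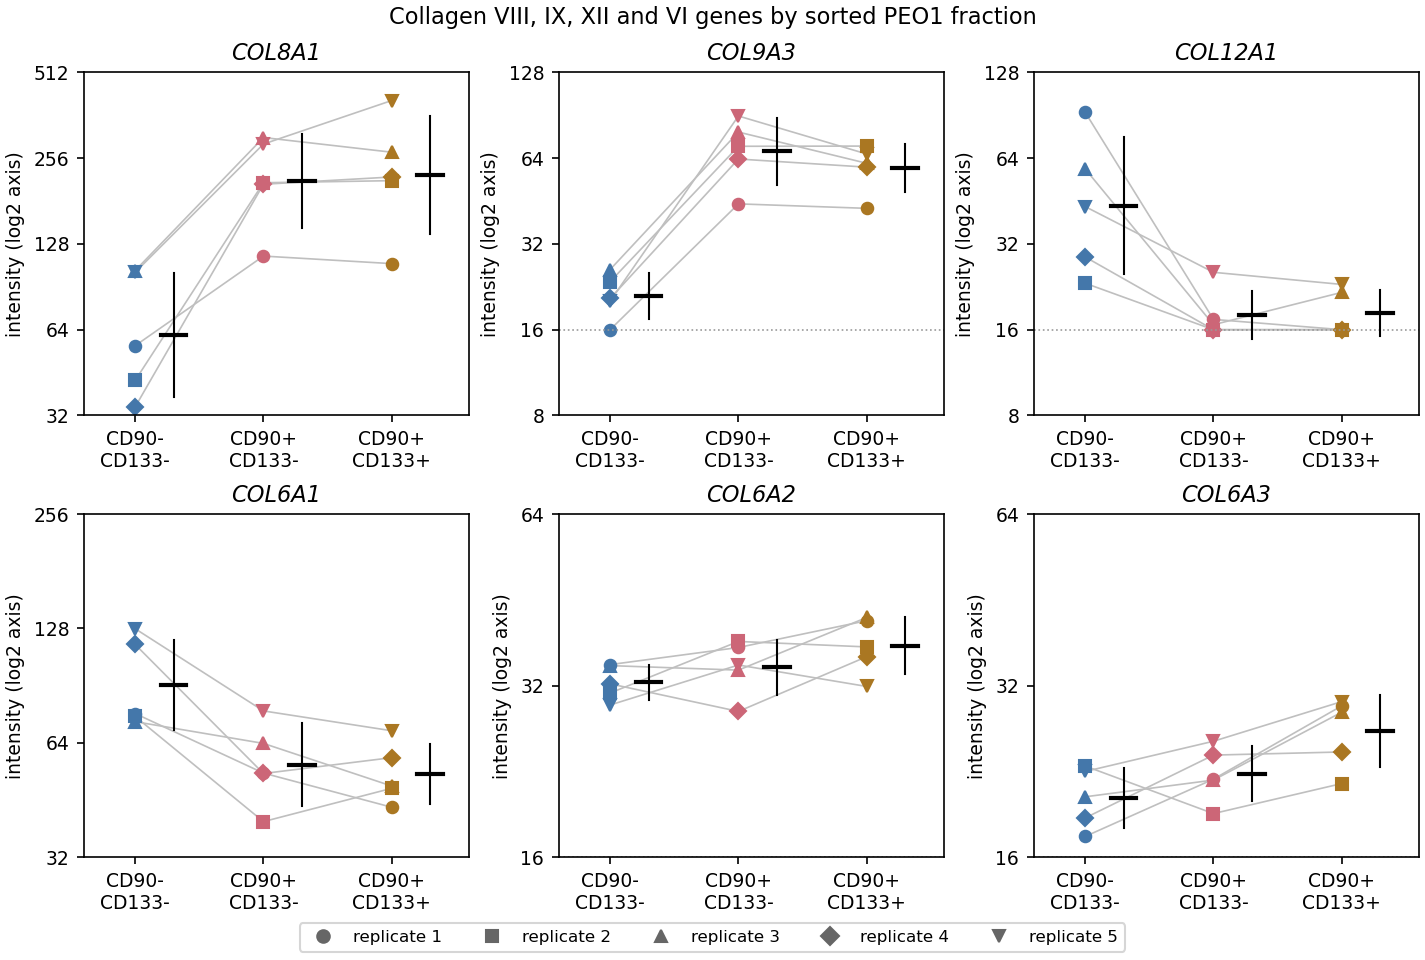
Probe-set intensity (log2 axis) of COL8A1, COL9A3, COL12A1 and the collagen VI genes on each array in the 3 sorted fractions. Symbols are replicate numbers, grey lines join arrays of the same number, black bars show the mean of the log2 values with its SD (n = 5) and the dotted line is the floor of 16. COL8A1 and COL9A3 rise in every pair in both CD90+ fractions, COL12A1 and COL6A1 are lower in every pair, and the means of COL6A2 and COL6A3 differ by at most 0.39 on the log2 scale.

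The other genes called only with the replicate block differed widely between replicate numbers. COL5A1, which encodes a chain of the collagen that seeds and limits the width of collagen I fibrils, was at 74.9, 121.5, 131.9, 124.2 and 157.0 on the CD90-/CD133- arrays, at 33.7, 60.9, 64.2, 72.0 and 153.4 on the CD90+/CD133- arrays and at 24.1, 59.1, 60.6, 70.3 and 97.6 on the CD90+/CD133+ arrays. Replicate 1 was the lowest and replicate 5 the highest in every fraction, and within each number both CD90+ arrays lay below the CD90-/CD133- array. The log2 fold change was -0.80 (adjusted p = 0.209 from limma, 0.0443 with the replicate block) and -1.06 (adjusted p = 0.0817, 0.0107 with the block), and its other 2 probe sets gave -0.45 and -0.40, and -0.72 and -0.48.
COL18A1, whose product carries the endostatin fragment, was at 55.4, 64.3, 100.3, 68.4 and 134.1 in CD90-/CD133-, at 59.5, 79.99, 107.5, 84.4 and 143.6 in CD90+/CD133- and at 81.8, 82.9, 144.2, 79.3 and 186.1 in CD90+/CD133+ cells. It was higher in all 5 pairs of both comparisons, by 0.18 (adjusted p = 0.871 from limma, 0.0587 with the replicate block) and 0.43 on the log2 scale (0.492, 0.00956 with the block). Its other probe set gave 0.45 and 0.56.
COL7A1, the anchoring fibril collagen, was at 42.3, 39.2, 44.8, 41.3 and 71.6 in CD90-/CD133-, at 39.5, 36.8, 36.5, 38.0 and 59.0 in CD90+/CD133- and at 39.9, 38.9, 38.4, 37.8 and 54.3 in CD90+/CD133+ cells. The difference from CD90-/CD133- cells was small, -0.18 (adjusted p = 0.693 from limma, 0.0460 with the block) and -0.17 (0.658, 0.131 with the block), and the other probe set gave 0.07 and -0.00. In contrast, all 3 replicate 5 arrays lay above the other 12 arrays. COL27A1, a fibril-forming collagen (136.3 to 183.0 on the replicate 5 arrays, 62.1 to 107.5 on the others), and COL16A1, a fibril-associated one (115.7 to 139.1, 33.5 to 78.8), did the same. So 3 of the 26 collagen genes above the floor on at least 1 array had all replicate 5 arrays on top. That share is larger than the 3.28% of the 16393 such genes in all, but it rests on few genes and was not tested. Neither COL27A1 nor COL16A1 passed in any comparison.

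**Figure D4:**
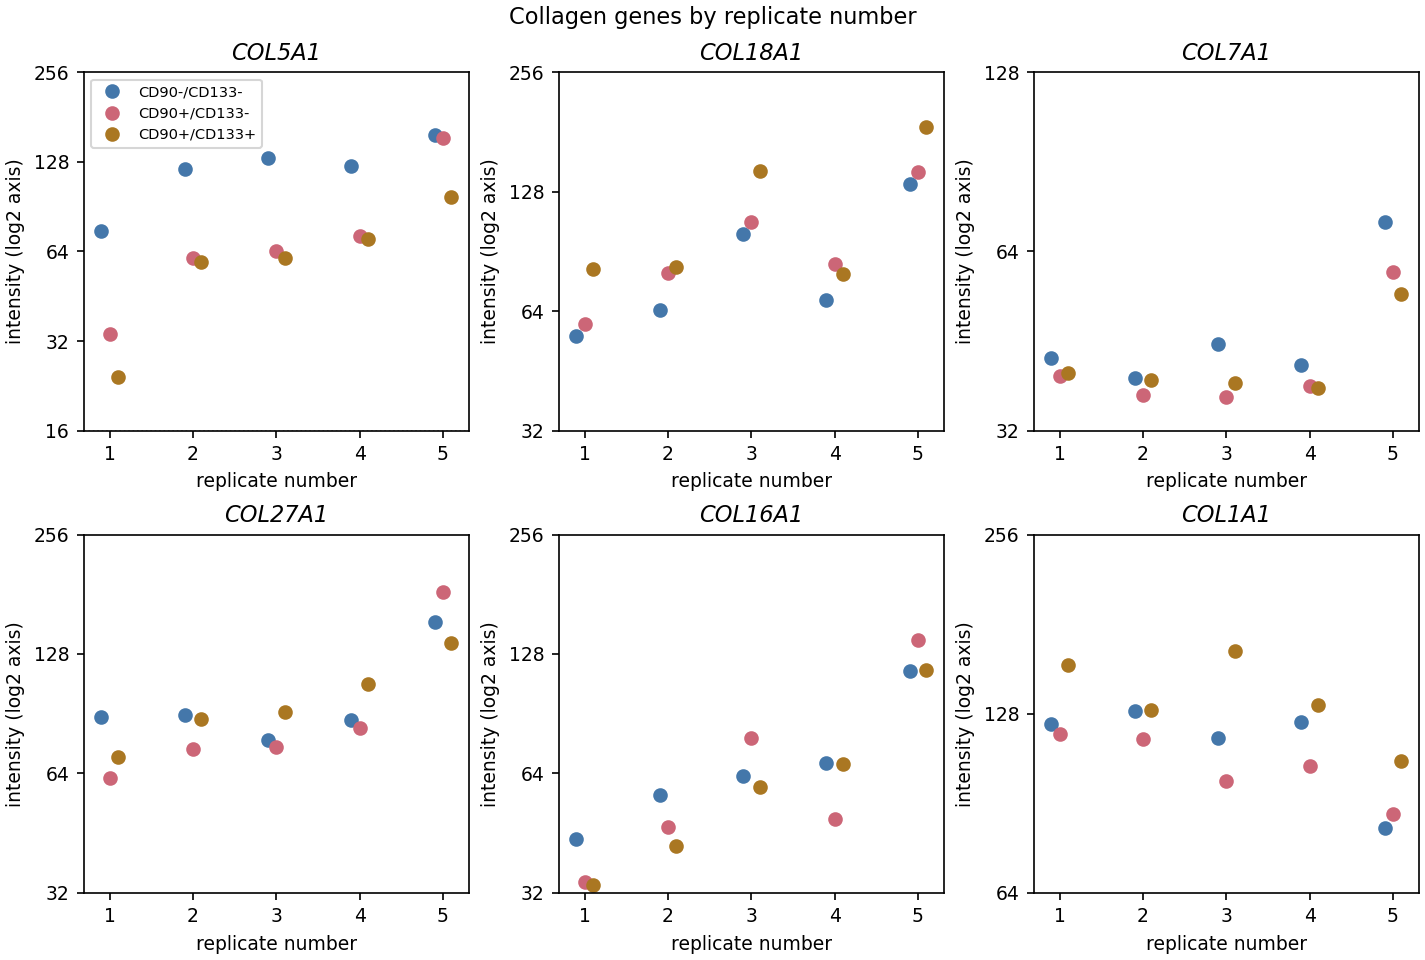
Probe-set intensity (log2 axis) of 6 collagen genes by replicate number, with 1 point per fraction. COL7A1, COL27A1 and COL16A1 are highest in all 3 fractions at replicate 5, COL5A1 runs from 24.1 to 74.9 at replicate 1 to 97.6 to 157.0 at replicate 5, and COL1A1 is highest in CD90+/CD133+ cells at each number.

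Several collagen genes gave no reading above the floor. The fibril-forming COL2A1, COL3A1 and COL11A1, the fibril-associated COL14A1 and COL21A1, and COL15A1 were at the floor on all 15 arrays (6 of 32 genes), as were 17.1% of all genes, and a change under the floor cannot be seen. COL1A2 was at 16 to 19.5 and COL5A2 at 16 on 14 of the arrays. COL1A1, which encodes the main chain of collagen I, was measurable at 82.3 to 163.2, COL5A3 at 31.8 to 53.5, COL11A2 at 46.3 to 89.8 and the transmembrane collagen COL13A1 at 37.2 to 51.6. None of these passed against CD90-/CD133- cells in either fit.

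The third comparison, CD90+/CD133+ over CD90+/CD133- cells, asks what CD133 adds within CD90+ cells. No collagen gene was called (limma, 0 of 32, beside 0.0506% of all genes), nor was any with the replicate block (0.0961% of all genes), and 2 of 32 had an unadjusted p under 0.05 in each fit. The intervals show what this leaves possible. For COL4A1 the 95% confidence interval of the log2 fold change was -0.16 to 0.30 and for COL4A2 -0.20 to 0.24, so a change of the size seen against CD90-/CD133- cells lies outside both. For COL4A5 (-1.31 to 0.59, with arrays at the floor in both fractions), COL8A1 (-0.81 to 0.95), COL9A3 (-0.67 to 0.29) and COL5A1 (-1.34 to 0.82) the intervals were wider. The changes of COL8A1 and COL9A3 against CD90-/CD133- cells lay outside theirs too, while those of COL5A1 (-0.80 and -1.06) lay inside. For COL4A5 a further fall of the size seen against CD90-/CD133- cells would end under the floor, so its interval cannot exclude one.
COL1A1 showed the clearest difference by unadjusted p. It was at 154.4, 129.9, 163.2, 132.4 and 106.8 in CD90+/CD133+ and at 118.4, 116.2, 98.8, 104.6 and 86.8 in CD90+/CD133- cells, higher in all 5 pairs though the fractions overlapped. The log2 fold change was 0.38 (95% confidence interval 0.08 to 0.68, adjusted p = 0.294 from limma, 0.140 with the replicate block). COL10A1 had an unadjusted p of 0.0409 with a log2 fold change of -0.07, and COL6A3 was higher in all 5 pairs by 0.25 (adjusted p = 0.444).

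Genes that modify, carry, cross-link, bind or degrade collagen were read next to the chains themselves. Each was read from its brightest probe set, and its other probe sets, where it had any, were not read separately. The lists are short, and their counts stand beside 9.08% of all genes higher and 9.88% lower in CD90+/CD133- cells and 9.57% higher and 10.8% lower in CD90+/CD133+ cells, and no list was tested as a whole. Genes whose call differed with the replicate block are named for that reason after their values were seen. Of 17 enzymes and chaperones that modify and fold collagen in the endoplasmic reticulum, 1 was higher and 2 were lower in each CD90+ fraction. P4HA1, the catalytic subunit of the prolyl 4-hydroxylase that stabilises the helix, rose 1.76-fold in both (208.9 in mean intensity in CD90-/CD133- cells, 367.8 in CD90+/CD133-, 367.2 in CD90+/CD133+). SERPINH1, the collagen chaperone HSP47, fell in both (log2 fold change -0.94 and -0.75, adjusted p = 0.00115 and 0.00327 from limma), and P3H2, a prolyl 3-hydroxylase that acts on collagen IV, did so too (-1.44 and -1.21, adjusted p = 0.0497 in both, 0.00186 and 0.00506 with the replicate block). With the block the counts were 2 higher and 4 lower in CD90+/CD133- and 3 higher and 4 lower in CD90+/CD133+ cells. CRTAP, part of the prolyl 3-hydroxylation complex, was then higher in both (adjusted p = 0.0118 and 0.0121 with the block) and the prolyl isomerase gene FKBP14 lower in both (0.0140 and 0.00230). PLOD1 was lower in CD90+/CD133- cells (0.0379), and in CD90+/CD133+ cells P3H1 was lower (0.0349) and PPIB higher (0.0390).
Of 7 genes of procollagen export, 1 was higher and 1 lower in CD90+/CD133- cells, and 1 was higher and 2 were lower in CD90+/CD133+ cells. TRAPPC2, a tethering factor at exit sites, rose by 0.53 and 0.26. The SNARE protein gene STX18 fell by 0.57 in CD90+/CD133- cells, and in CD90+/CD133+ cells the coat gene SEC24D fell by 0.91 and MIA3, whose product TANGO1 loads procollagen into carriers, fell by 0.38. In CD90+/CD133- cells MIA3 had a log2 fold change of -0.36, lower in all 5 pairs, and was called with the replicate block alone (adjusted p = 0.152 from limma, 0.0215 with the block), as was KLHL12, higher in CD90+/CD133+ cells (0.341, 0.0108 with the block).
Of 14 genes for propeptide cleavage and crosslinking, LOXL2, a lysyl oxidase that cross-links collagen IV, was higher in both, from a mean of 57.7 to 107.8 and 112.4 (adjusted p = 0.00761 and 0.00108 from limma). BMP1, the procollagen C-proteinase, and PCOLCE, its enhancer, were lower in CD90+/CD133- cells (log2 fold change -0.60 and -0.64) and did not pass in CD90+/CD133+ cells, where PCOLCE was called with the replicate block (-0.54, adjusted p = 0.106 from limma, 0.00744 with the block). Of the other lysyl oxidases, the block also called LOXL3 higher (adjusted p = 0.0371 and 0.0106) and LOXL4 lower (0.00464 and 0.0309) in both fractions and LOXL1 higher in CD90+/CD133+ cells (0.0435), where the collagen IV cross-linking peroxidasin gene PXDN was higher too (0.0170).

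Of 9 measured collagen receptors, ITGA2 changed most. It encodes the α2 integrin subunit, which binds collagen together with the product of ITGB1, and its mean intensity was 1688 in CD90-/CD133-, 393.3 in CD90+/CD133- cells and 337.6 in CD90+/CD133+ cells (log2 fold change -2.10 and -2.32, adjusted p = 7.52e-04 and 6.83e-04 from limma). ITGB1 was 1.28-fold and 1.26-fold higher. In CD90+/CD133+ cells ITGA10, another collagen-binding subunit, rose by 0.29 on the log2 scale (not called with the replicate block, adjusted p = 0.0658) and MRC2, an endocytic collagen receptor, fell by 0.79. In CD90+/CD133- cells MRC2 also had a log2 fold change of -0.79, lower in all 5 pairs, and was called with the replicate block only (adjusted p = 0.0545 from limma, 0.00384 with the block).
Of 12 genes of collagen degradation and its inhibitors, none rose, while 4 fell in CD90+/CD133- cells and 3 in CD90+/CD133+ cells. MMP9, a gelatinase that cleaves collagen IV, was at a mean of 79.6 in CD90-/CD133- and 32.5 and 32.4 in the CD90+ fractions. The membrane-type metalloproteinase gene MMP16 was at 32.3 to 78.2 in CD90-/CD133- cells and at the floor on all 10 CD90+ arrays, at least 3.79-fold lower, and FAP, a stromal protease that trims cleaved collagen, was 4.06-fold and 3.95-fold lower. TIMP1, an inhibitor of metalloproteinases such as MMP9, fell by 0.52 in CD90+/CD133- cells. TIMP2 was lower in all 5 pairs of both comparisons (log2 fold change -0.38 and -0.60) and was called with the replicate block only (adjusted p = 0.629 and 0.308 from limma, 0.0402 and 0.00264 with the block).

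Of 15 collagen-binding matrix genes, 2 were higher and 1 was lower in each comparison. BGN, the collagen-binding proteoglycan biglycan, was at 30.7 to 157.4 in CD90-/CD133-, 330.4 to 665.1 in CD90+/CD133- and 283.4 to 793.4 in CD90+/CD133+ cells (log2 fold change 2.82 and 2.75, adjusted p = 0.00385 and 0.00584 from limma). MATN2, the adaptor protein matrilin 2, rose 4.91-fold and 4.97-fold. SPARC, a collagen-binding glycoprotein of basement membranes, was at 1805 to 3253 in CD90-/CD133- cells and fell in both CD90+ fractions (log2 fold change -1.07 and -1.02). THBS1, the matrix protein thrombospondin 1, was higher in all 5 pairs of both (1.05 and 1.07), and was called only with the replicate block (adjusted p = 0.202 and 0.231 from limma, 0.0321 and 8.98e-04 with the block).
Of 16 regulators of collagen transcription, 4 were higher and 3 lower in CD90+/CD133- cells, and 2 were higher and 3 lower in CD90+/CD133+ cells. TGFBR2, a receptor for TGF-β, rose 3.77-fold and 4.05-fold, while the signal carriers SMAD2 and SMAD4 fell in CD90+/CD133- cells (log2 fold change -1.004 and -0.92) and in CD90+/CD133+ cells (-1.20 and -1.43). SMAD7, the inhibitor of the same pathway, fell as well (-1.04 and -1.51). The ligand gene TGFB1, also named after its values were seen, rose 1.74-fold and 1.57-fold (adjusted p = 0.0112 and 0.00232 from limma). SMAD3, another signal carrier, rose in CD90+/CD133- cells (log2 fold change 0.33, adjusted p = 0.0254, 0.0171 with the replicate block) and was called in CD90+/CD133+ cells with the block only (0.41, adjusted p = 0.0686, 0.0315 with the block). TGFB3 rose by 0.26 in CD90+/CD133- cells and was not called with the block (adjusted p = 0.0370, 0.0982 with the block), and CCN2, a target of the pathway, was called lower in CD90+/CD133+ cells by the block only (-0.80, adjusted p = 0.515, 0.0440 with the block). Among 11 collagen genes outside the list of 33, COL22A1 was lower in both (52.8 to 24.7 and 27.7 in mean intensity) and COL23A1 in CD90+/CD133- cells (55.5 to 34.8, not called with the replicate block, adjusted p = 0.0714). In CD90+/CD133+ cells COL23A1 was lower in all 5 pairs too (log2 fold change -0.55) and was called with the block only (adjusted p = 0.0703 from limma, 0.0163 with the block). Between the CD90+ fractions no gene of these 8 lists passed (limma, with or without the replicate block).

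**Figure D5:**
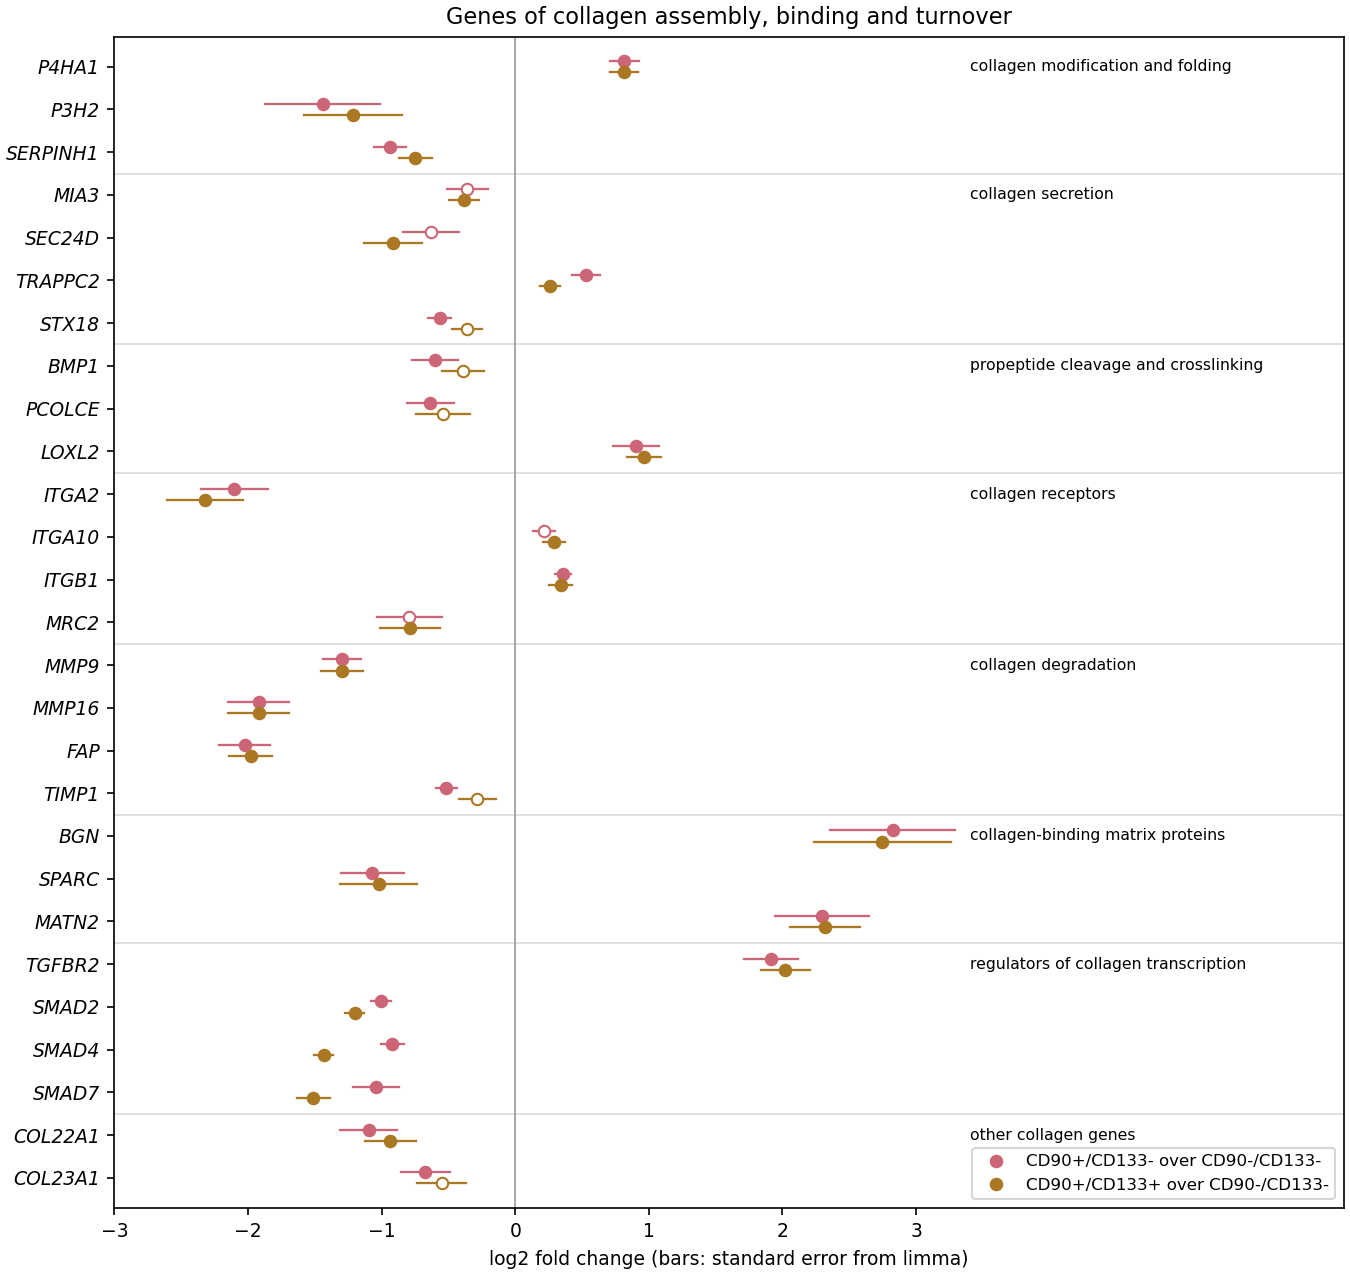
Log2 fold change of the called genes with the largest changes in each list of collagen assembly, binding and turnover (up to 4 per list and comparison) in each CD90+ fraction over CD90-/CD133- cells (points, bars are the SE from limma, n = 5 arrays per fraction), grouped by list. Filled points passed an adjusted p under 0.05 and open points did not. BGN, MATN2 and TGFBR2 lie farthest to the right and ITGA2, FAP and MMP16 farthest to the left in both comparisons.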

How the data were processed

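RNA from 15 sorted samples (3 fractions, 5 arrays each) was hybridized to whole-genome expression arrays, and the authors applied cross-correlation normalization. They deposited a linear intensity for each probe set, never under 5. How probes were summarised is not given in the sources used here. That normalization was kept, values under 16 were set to 16, which understates the change of dim genes, before log2 was taken. The arrays hold 54675 probe sets, of which 41091 name a single gene (41037 of them found in RefSeq), 1801 name several and 11777 are unnamed here. Each of 19775 genes was represented by the probe set with the highest mean over all arrays, and levels were not compared between genes.

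Fractions were compared in pairs with limma 3.58.1 in R 4.3.3, with 2-sided moderated tests from lmFit and eBayes. Benjamini-Hochberg adjustment covered all genes, with calls at an adjusted p under 0.05, and the fit was first tested on simulated data. The number of arrays limits the precision. RNA quality was compared with an exact permutation test. The replicate numbers pair the arrays, since labels share codes within a number and deviations from the group mean correlated between same-numbered arrays (0.70, 0.32, 0.14, 0.40 and 0.59 for replicates 1 to 5 of the first comparison, 0.18 to 0.70 and 0.30 to 0.80 in the others), so results of a fit with the replicate block are given where they change a call.

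The collagen genes and the lists of related genes were chosen with earlier results of these data known. Values are given for each collagen gene called in either fit, for chains of the same type, and for up to 4 called genes per list and comparison with the largest change, with further genes of the 8 collagen-related lists named after their values were seen, where the block changed their call. Alternatives were other normalizations, floors, probe-set rules, filters and fits, arrays or replicate numbers left out, and the methods' 1.5-fold rule and t-test. Leaving out genes at the floor on all arrays was added after seeing the data.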

Additional observations from a re-analysis of the deposited data

Results flagged for a closer look

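In 15 of the 72 groups of 5 arrays tested (12 collagen genes), 1 array stood apart from the other 4 by a gap of over 0.71 of the group's range. Chance flags about 1 in 20 groups of measured values. That rate does not hold for groups with arrays set to the floor of 16, which gave 5 of the flags, and 2 of those (COL5A2 and COL4A3) had the 4 other arrays at the floor, where any higher value is flagged. Replicate 5 held 12 of the 15 flags. In CD90-/CD133- cells replicate 5 was low for COL1A1 (82.3, next 116.6) and COL5A3 (31.8, next 44.5), and high for COL7A1 (71.6, next 44.8), COL27A1 (153.6, next 89.6), COL5A2 (20.7), COL4A6 (22.8) and COL4A3 (17.1), the last 3 close to the floor. In CD90+/CD133- cells it was high for COL7A1 (59.0), COL27A1 (183.0, next 83.1) and COL12A1 (25.4), and in CD90+/CD133+ cells for COL7A1 (54.3) and COL4A5 (27.6, next 17.2). The other 3 flags were low values of COL1A2 in CD90+/CD133+ replicate 2 (16), COL8A2 in CD90+/CD133+ replicate 3 (17.6) and COL11A2 in CD90+/CD133- replicate 1 (46.3, next 68.2). The groups share replicate numbers and are not independent, and the cause of the flags was not tested.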

How the results depend on the processing

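COL4A1 and COL4A2 kept their direction and call in both comparisons with CD90-/CD133- cells under all 28 alternatives, and COL4A5 under all 27. COL8A1 lost its call under 3 of 28 and COL9A3 under 2 of 27. No named collagen gene changed sign with its call. In CD90+/CD133- cells the count of higher genes went from 2 to 1 with a floor of 64 or with brighter genes only, to 0 with replicates 4 and 5 left out, and lay between 1 and 2 with an array or number left out. The lower genes went from 4 to 2 with brighter genes only and to 7 by the methods' 1.5-fold of the averages with no test, and lay between 3 and 6 with an array or number left out. In CD90+/CD133+ cells the higher genes went from 3 to 1 with a floor of 64 or with brighter genes only, to 0 with replicates 4 and 5 left out, and to between 1 and 3 with an array or number left out. The lower genes went from 5 to 3 with brighter genes only and to between 3 and 5 with an array or number left out. Between the CD90+ fractions 1 gene, COL4A5, passed 1.5-fold downwards where the test called 0. The replicate block gave 2 higher and 6 lower genes in CD90+/CD133- and 4 higher and 5 lower in CD90+/CD133+ cells. Fewer genes were tested with brighter genes only and fewer arrays with replicates left out, and apart from that the cause was not tested. A mean intensity under 64, close to the background, limits 23 of the 32 genes.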
